A study of Mus musculus with 6 samples.

Results

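The genes described here supply mouse liver with choline and phosphatidylcholine, or with the lysophosphatidylcholine from which it can be rebuilt: Mfsd2a, Chka, Chkb, Pcyt1a, Pcyt2, Chpt1, Cept1, Pemt, Lpcat3 and Bhmt. Every probe set that the platform annotation maps to exactly 1 of these 10 symbols was taken, which gave 18 of the 45037 probe sets in the table. The set was chosen by the large measured fall of Mfsd2a in the AAV8-Nfkbiz against AAV8-luciferase contrast, with genes of the same supply routes added around it, so the differences of the 10 genes in that contrast are given as a description and not as a test. Both groups were C57BL/6 mice that received an intravenous AAV8 vector, a virus that transduces mouse liver, expressing luciferase in one group (3 arrays) and Nfkbiz, which encodes the nuclear protein IκBζ, in the other (3 arrays). All of them went onto CDAHFD 4 weeks after the vector and were on it for 4 weeks, a diet that is low in choline, defined in its amino acids and high in fat. The livers were perfused before RNA was taken. No group on another diet is used here, so every value below is a level under choline shortage and no effect of the diet itself can be read from it. The sources used here do not give age, sex or the promoter in the vector.

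Phosphatidylcholine is the main phospholipid of cell membranes, of bile and of the surface of very low density lipoproteins. Liver makes it by the CDP-choline (Kennedy) route, in which choline is phosphorylated by choline kinase, activated by CTP:phosphocholine cytidylyl transferase and joined to diacylglycerol, and by the PEMT route, in which phosphatidylethanolamine is methylated in 3 steps with S-adenosylmethionine as the donor. Choline-deficient diets are used to produce fatty liver because both the CDP-choline route and the export of triglyceride in lipoproteins draw on choline. Lysophosphatidylcholine, taken up from plasma or released by phospholipases, can also be reacylated to phosphatidylcholine.

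Values are MAS5 intensities on a linear scale, and a difference is the AAV8-Nfkbiz mean minus the AAV8-luciferase mean on the log2 scale, with limma's moderated standard error (SE). All 18 probe sets lay above the filter on dim probe sets, an intensity of 47.4. A probe set or gene was called at a limma adjusted p below 0.05 over all those fitted. Of the 27022 probe sets fitted, 19 were called (0.0703%), 5 higher (0.0185%) and 14 lower (0.0518%), a split that became 7 and 9 when each array was centred on its median. Of the 18 probe sets of the supply genes, 1 was called, that of Mfsd2a, which was lower. The groups did not overlap for 16.7% of all probe sets fitted, 7.03% higher and 9.69% lower, and for 4 of these 18, 1 higher (Chka) and 3 lower (Mfsd2a, Pcyt1a and Pcyt2). Across the 18, 11 differences were positive and 7 negative, with a median of 0.08 (-0.0073 with array weights) against -0.02 over all probe sets fitted. With each gene represented by its brightest probe set, 1 of the 10 genes was called, beside 30 of 13312 over all genes (0.225%), 21 lower (0.158%) and 9 higher (0.0676%). In the plot of levels by array, Mfsd2a is the panel in which the groups stand farthest apart.

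**Figure D1:**
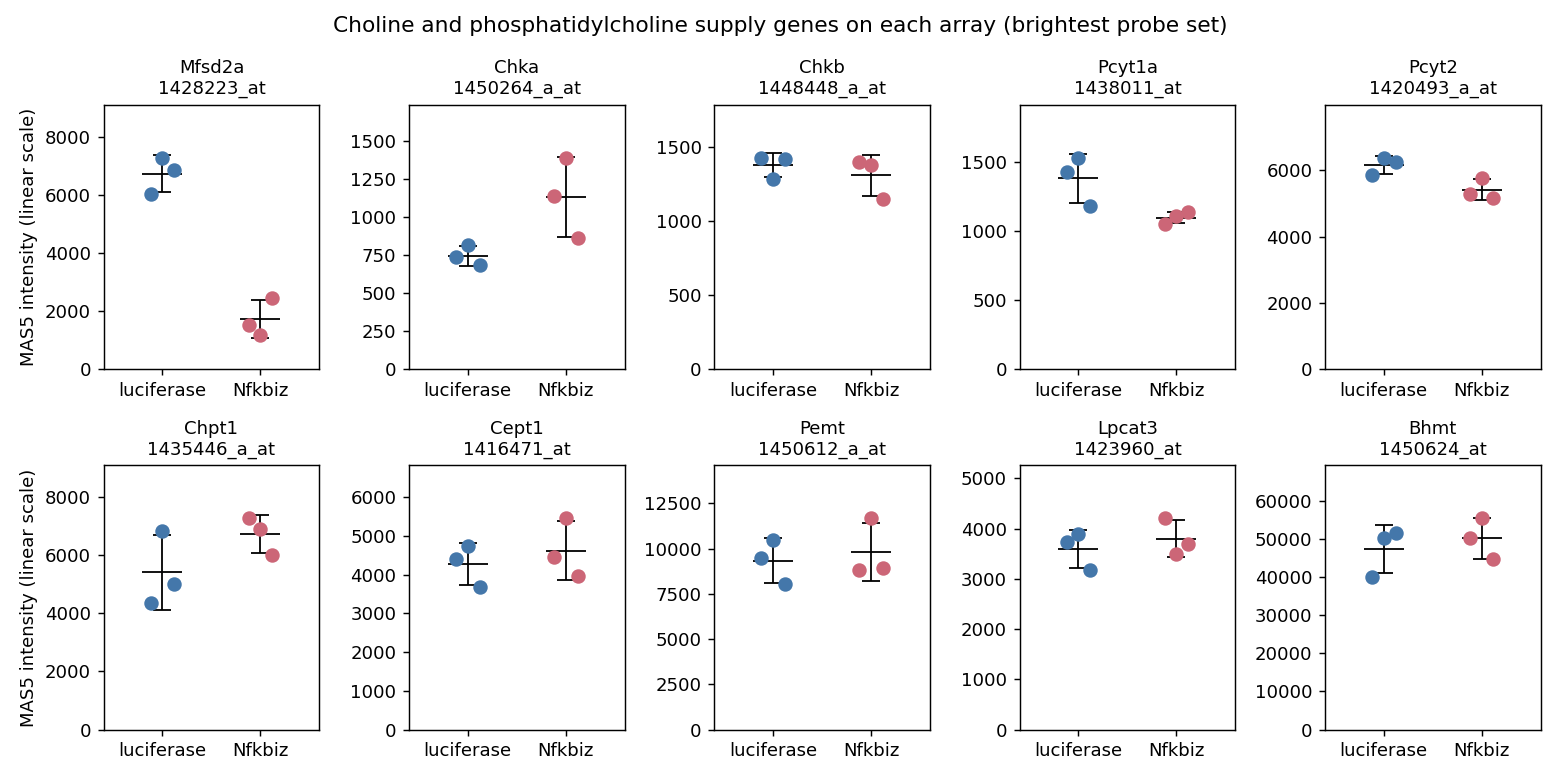
MAS5 intensity (vertical axis, linear, from 0) of the brightest probe set of each of the 10 supply genes on the 3 AAV8-luciferase (blue) and 3 AAV8-Nfkbiz (red) arrays; points are arrays, the long bar is the group mean and the whiskers 1 SD. The Mfsd2a points sit between 6033 and 7291 in the luciferase group and between 1179 and 2461 in the Nfkbiz group, while the groups of Chkb, Chpt1, Cept1, Pemt, Lpcat3 and Bhmt overlap.

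Mfsd2a encodes a sodium-dependent transporter of lysophosphatidylcholine that carries long-chain polyunsaturated fatty acids, best known from the endothelium of the blood-brain barrier. In liver its transcript is known to rise on fasting. Probe set 1428223_at, the gene's only one in this set, read 6033, 7291 and 6861 in the luciferase livers and 1528, 1179 and 2461 in the Nfkbiz livers. The lowest luciferase array was thus 2.45 times the highest Nfkbiz array. The log2 difference was -2.03 ± 0.23 (SE, n = 3 per group), which corresponds to a level 4.08-fold higher in the luciferase group, with a 95% interval of the difference from -2.54 to -1.51. Mfsd2a had the fifth most negative difference of the 13312 genes and was in place 8 by p, a place that describes why it was chosen. The relative spread was wider in the Nfkbiz group, with a coefficient of variation of 38.5% against 9.50% in the luciferase group.

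The Nfkbiz arrays differed among themselves both in Mfsd2a and in the vector's gene. The probe set of Nfkbiz that read the overexpression, 1448728_a_at, was at 221, 230 and 180 in the luciferase livers and at 4424, 4073 and 2006 in the Nfkbiz livers. The gene's other probe sets did not show it: 1417483_at was at 716, 833 and 959 against 1319, 927 and 881 (0.30 ± 0.19 SE, limma adjusted p = 0.603), and 1457404_at at 89.8, 168 and 76.0 against 86.3, 82.8 and 25.2 (-0.89 ± 0.54, limma adjusted p = 0.594). By mean log2 intensity 1417483_at was the brightest, so it stood for Nfkbiz in the gene fit, which thus missed the overexpression. The probe set fit read it at 1448728_a_at (3.98 ± 0.27 SE). At 1448728_a_at the third Nfkbiz array had the lowest reading of its group, and that array had the highest Mfsd2a reading of the group. The relation between them was not tested. Without that array the difference of Mfsd2a was -2.32. The other left-out arrays gave between -2.11 and -1.79. In the probe set fit the call of Mfsd2a was lost without the second luciferase array (-1.97), without the first Nfkbiz array (-1.98) and without the second (-1.79), and in the gene fit it was kept whichever 1 array was left out. It was lost in both fits when limma's variance prior had no intensity trend (-2.03 ± 0.28 in the gene fit), a setting under which 0 genes were called at all and 1350 had an unadjusted p below 0.05.

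In whole liver, fewer cells of a type and less RNA per cell cannot be told apart. The mean log2 intensity of 9 hepatocyte markers was 13.98 to 14.43 in the luciferase and 13.84 to 14.04 in the Nfkbiz livers, a difference of -0.25. The median of their own differences was 0.02, with 5 positive and 4 negative. These were 0.03 for Alb, 0.08 for Apoa1, 0.06 for Ttr, 0.15 for Fgb, 0.02 for Cyp2e1, -0.09 for Cps1, -0.35 for Hnf4a and -0.99 ± 0.73 (SE) for Ass1, none of them called. The Ass1 probe set was the dimmest of the list, at means of 417 (luciferase) and 143 (Nfkbiz). The ninth, the tyrosine aminotransferase gene Tat, fell (-1.17 ± 0.16 SE, limma adjusted p = 0.0218, lower on 3 of 3 Nfkbiz arrays). The mean over 11 Kupffer cell markers was 10.68 to 11.43 in the luciferase and 11.48 to 11.97 in the Nfkbiz livers, with positive differences for 10 of the 11, a median of 0.83 and 0 called. For 8 of the 11 (72.7%) the groups did not overlap, all of them higher, beside 18% of all genes. Of 7 sinusoidal endothelial markers 0 were called, though all 7 differences were positive (median 0.29), each with overlapping groups. The list means ran from 8.73 to 9.95 in the luciferase and from 9.65 to 9.91 in the Nfkbiz livers. Of 4 markers of brain-type endothelium, where Mfsd2a is best known, Slco1c1 and Pglyrp1 were below the filter. The others, Cldn5 and Slc2a1, were not called and had opposite signs. Cldn5 was at 0.47 with overlapping groups, and Slc2a1 was at -0.28, lower without overlap. The stellate cell, cholangiocyte and neutrophil markers had 0 called of 8, 3 and 3, with medians of -0.34, -0.64 and 0.84. The stellate differences were negative for 7 genes and positive for 1. In the other two lists the signs were mixed. Krt19 and Epcam were at -0.92 and -0.64 and Sox9 at 0.05 among the cholangiocyte markers. S100a8 and S100a9 were at 0.85 and 0.84 and Csf3r at -0.48 among the neutrophil markers. Of 6 T and NK cell markers 3 differences were positive and 3 negative, with a median of 0.15. Among them the granzyme gene Gzma rose (1.77 ± 0.28 SE, limma adjusted p = 0.0427, higher on 3 of 3 Nfkbiz arrays). Cd3e, Gzmb and Cd8a had the negative differences (-0.67, -0.18 and -0.09, not called). The part of these shifts in the values of the supply genes was not tested. On the second principal component of all genes, luciferase array 3 was at -45.1 and the others at 3.11 to 21.1, and without it the difference of Mfsd2a was -2.01.

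The promoter of Mfsd2a is printed because this was the 1 supply gene called, that of Bhmt because it was the other one holding the letters AGGTCA, and that of Chka because it had the highest positive difference. Each window holds the 250 bases before the RefSeq start site, from a RefSeq promoter table of GRCm38.p6, written 5′ to 3′ on the gene's strand. Of the 10 genes, 9 matched the table. Capitals mark every match, on either strand, to the 11 motifs searched.
Mfsd2a, chr4:122961189-122961438, minus strand: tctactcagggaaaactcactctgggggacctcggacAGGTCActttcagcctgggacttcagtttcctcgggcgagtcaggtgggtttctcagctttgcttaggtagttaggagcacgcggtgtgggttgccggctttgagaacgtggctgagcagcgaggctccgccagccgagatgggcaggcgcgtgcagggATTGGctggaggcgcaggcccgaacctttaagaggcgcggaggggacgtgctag
Bhmt, chr13:93637759-93638008, minus strand: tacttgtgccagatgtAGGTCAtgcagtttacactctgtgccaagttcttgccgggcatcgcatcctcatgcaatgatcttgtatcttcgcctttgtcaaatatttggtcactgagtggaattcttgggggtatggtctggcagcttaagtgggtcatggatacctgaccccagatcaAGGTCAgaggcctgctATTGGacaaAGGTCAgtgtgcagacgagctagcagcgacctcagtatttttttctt
Chka, chr19:3851523-3851772, plus strand: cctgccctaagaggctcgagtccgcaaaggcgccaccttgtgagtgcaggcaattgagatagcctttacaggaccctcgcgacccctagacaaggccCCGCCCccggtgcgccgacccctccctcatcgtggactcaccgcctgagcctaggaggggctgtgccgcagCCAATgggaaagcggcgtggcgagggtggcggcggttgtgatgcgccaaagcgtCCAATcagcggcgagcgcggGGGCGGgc

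In the Mfsd2a window the capitals are the nuclear receptor half-site AGGTCA at -213 to -208 and ATTGG, the CCAAT box on the other strand, at -54 to -50, counted back from -1 as the base before the start. AGGTCA stood in 14.0% of the 32851 promoter windows of the same length and CCAAT in 33.8%. Bhmt held 3 copies of AGGTCA and 1 CCAAT box. Chka held 2 CCAAT boxes and 2 GC boxes (GGGCGG, in 32.7% of all windows). AGGTCA was found in 2 of the 9 matched supply genes, Mfsd2a and Bhmt, the GC box in 6 and the CCAAT box in 7. A gene was counted if any of its windows matched, and Pcyt1a and Cept1 had 3 windows each and Pemt 2. The shares over all promoters are per window, so they are not like these counts per gene. The other motifs searched were the E-box CACGTG (6.02% of all windows), the CREB site TGACGTCA (1.55%) and its core TGACG (17.8%, which the full site contains), the full glucocorticoid receptor site (0.00913%) and its half-site TGTTCT (16.1%, which the full site contains), the D-box TTANGTAA (2.06%), the FoxO core TGTTTAC (3.17%) and the κB site (0.140%). None of these 8 letter strings was in the Mfsd2a window. Among the other supply genes TGACG was found in Pcyt1a and TGTTCT in Cept1. A match describes the letters of a window and is not evidence of a site in use.

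The 5 genes with a profile most like that of Mfsd2a over the 6 arrays were found by the root mean square distance between log2 intensities after each gene was centred on its own mean. They were Foxo3, a forkhead transcription factor gene (distance 0.31), Usp2, a clock-controlled ubiquitin protease gene (0.34), Zfp703 (0.36), Zbtb16 (0.37) and Lpin1, a phosphatidate phosphatase gene (0.40). Foxo3 read 1614, 1765 and 1561 in the luciferase livers and 447, 509 and 815 in the Nfkbiz livers, and Usp2 read 2183, 2518 and 2846 against 815, 618 and 665. Lpin1 read 3146, 6792 and 4250 against 857, 610 and 894. For Foxo3 and Lpin1, as for Mfsd2a, the third Nfkbiz array was the highest of its group, and for Usp2, Zfp703 and Zbtb16 the first was. Foxo3, Usp2 and Lpin1 were called, at limma adjusted p-values of 0.0261, 0.00276 and 0.0035. Zbtb16 read 685, 996 and 708 against 201, 196 and 182 and was called too (limma adjusted p = 0.00285). Zfp703 read 247, 201 and 190 against 85.0, 35.7 and 84.7 and was not called (limma adjusted p = 0.134). A group difference of like size is enough to bring a gene near Mfsd2a on this measure, and it says nothing about shared control. The other supply genes were far from it, from 0.91 (Pcyt1a) to 1.41 (Chka). Of the 5 genes, 3 matched the promoter table. Lpin1 held AGGTCA and TGTTCT, Foxo3 the GC box and TGACG, and Usp2 the GC box. No other motif searched was found in them.

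**Figure D2:**
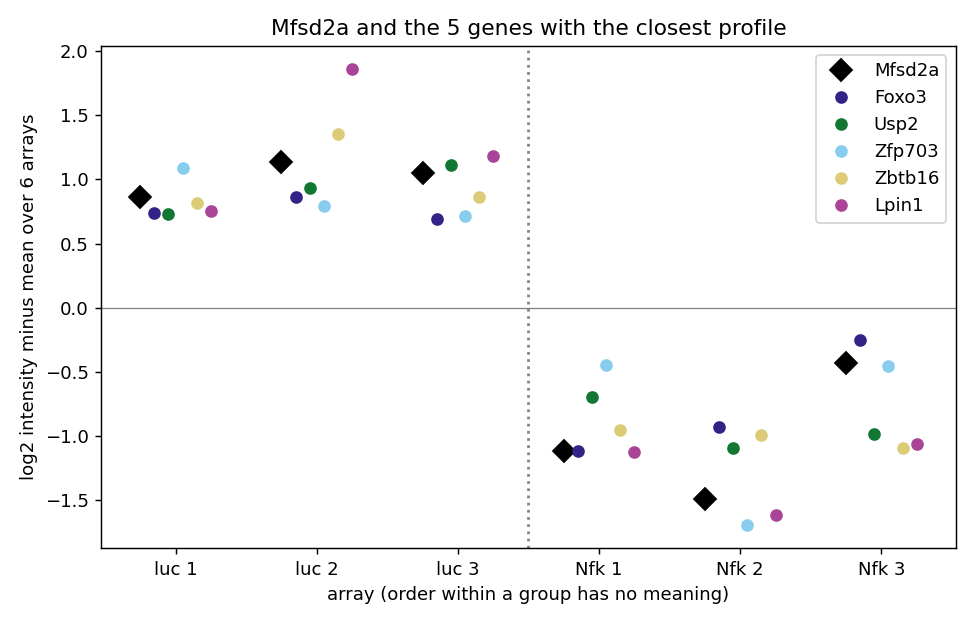
Log2 intensity minus each gene's own mean over the 6 arrays (vertical axis) for Mfsd2a (black diamonds) and the 5 genes nearest to it, on the 3 luciferase (luc) and 3 Nfkbiz (Nfk) arrays, with points set side by side within an array. The third Nfkbiz array holds the highest point of its group for Mfsd2a, Foxo3 and Lpin1, and the points of all 6 genes lie above 0 on the luciferase and below 0 in the Nfkbiz livers.

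The first step of the CDP-choline route is choline kinase, a dimer of the products of Chka and Chkb. Chka, the gene of the alpha isoform, read 732, 811 and 680 in the luciferase livers and 1137, 1389 and 862 in the Nfkbiz livers at its brightest probe set, 1450264_a_at. All 3 Nfkbiz arrays were above all 3 luciferase arrays, with the third Nfkbiz array nearest to them. The log2 difference was 0.58 ± 0.19 (SE), a 1.5-fold higher level with an interval from 1.12-fold to 2.0-fold, and it was not called. The remaining Chka probe sets did not show it. Probe set 1453582_at read 182, 130 and 102 against 96.1, 118 and 80.3 (-0.47 ± 0.32), and 1442277_at read 135, 156 and 14.5 against 50.7, 88.2 and 65.5 (-0.02 ± 0.80), with the third luciferase array far below the others. Both are dim, and without that array the second of them was at -1.13. Its sign turned under each other scaling of the arrays. The difference of Chka as a gene was 0.03 with the mean of its probe sets, and -0.02 with the most variable one.

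Chkb, the gene of the beta isoform, read 1428, 1284 and 1418 in the luciferase and 1398, 1376 and 1147 in the Nfkbiz group. These values overlapped, with a difference of -0.08 ± 0.14 (SE) and an interval from 0.763-fold to 1.17-fold, and the sign turned without Nfkbiz array 3 (0.013). A further probe set that the annotation shares between Chkb, Cpt1b and Gm44502 was not counted.

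Pcyt1a encodes the alpha form of the cytidylyl transferase, the rate-limiting and membrane-activated step of the route, and its 4 probe sets did not move one way. The brightest, 1438011_at, read 1427, 1529 and 1182 in the luciferase livers and 1049, 1104 and 1133 in the Nfkbiz livers. Its groups did not overlap, but the lowest luciferase array was 1.04 times the highest Nfkbiz array (difference -0.33 ± 0.14 SE, not called). The other 3 had positive differences and overlapping groups. Probe set 1421957_a_at read 594, 565 and 645 against 647, 643 and 712 (0.15 ± 0.15), and 1424453_at and 1450434_s_at were at 0.09 ± 0.20 and 0.25 ± 0.21. The last 2 were lowest on the third luciferase array, at 469 and 296, and without that array 1424453_at was at -0.12. With the mean of the 4 probe sets Pcyt1a differed by 0.04 and with the most variable one by 0.25. Where on the transcript these 4 probe sets lie was not examined.

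**Figure D3:**
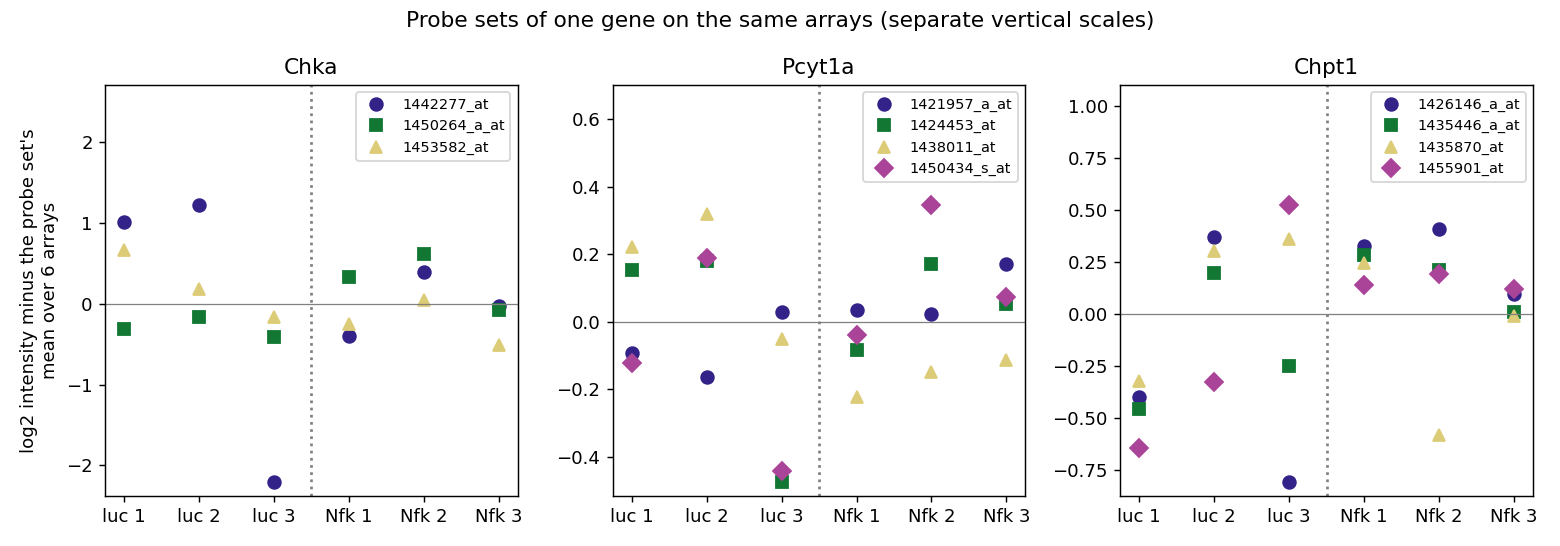
Log2 intensity minus each probe set's own mean over the 6 arrays (vertical axes, scaled separately) for the genes with several probe sets, Chka (3), Pcyt1a (4) and Chpt1 (4), on the luciferase (luc) and Nfkbiz (Nfk) arrays. On the third luciferase array Chka probe set 1442277_at lies at -2.20, and Chpt1 probe sets 1426146_a_at and 1455901_at lie at -0.81 and 0.52.

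The last step joins CDP-choline to diacylglycerol. Chpt1, the gene of the cholinephosphotransferase, read 4345, 6829 and 5014 in the luciferase livers and 7254, 6890 and 5996 in the Nfkbiz livers at its brightest probe set, 1435446_a_at. The groups overlapped, with a difference of 0.34 ± 0.17 (SE). Of the other 3 probe sets, 1426146_a_at (0.56 ± 0.25) and 1455901_at (0.30 ± 0.25) were positive and 1435870_at (-0.23 ± 0.25) was negative, all with overlapping groups. The luciferase arrays disagreed between these probe sets: 1426146_a_at read 1980, 3382 and 1492 there, lowest on the third array, and 1455901_at read 1881, 2345 and 4231, highest on that same array. On the Nfkbiz arrays 1455901_at read 3240, 3366 and 3195, a coefficient of variation of 2.71% against 44.1% in the luciferase group. Which luciferase array was left out set the size of these differences. Probe set 1435446_a_at ran from 0.19 (without luciferase array 1) to 0.52 (without array 2). Probe set 1426146_a_at ran from 0.29 (without array 3) to 0.88 (without array 2), and 1455901_at from 0.052 (without array 1) to 0.64 (without array 3). The negative difference of 1435870_at ran from -0.45 (without luciferase array 1) to 0.0029 (without Nfkbiz array 2).

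Cept1, whose enzyme makes both phosphatidylcholine and phosphatidylethanolamine, read 4413, 4746 and 3687 against 4447, 5457 and 3964. The groups overlapped, and the difference was 0.11 ± 0.15 (SE) with an interval from 0.847-fold to 1.37-fold. Its sign turned without Nfkbiz array 2 (-0.020). Pcyt2, the cytidylyl transferase gene of the parallel ethanolamine route, read 5854, 6391 and 6244 in the luciferase livers and 5290, 5782 and 5176 in the Nfkbiz livers. All 3 Nfkbiz arrays were lower, by a small margin, since the lowest luciferase array was 1.01 times the highest Nfkbiz array. The difference was -0.19 ± 0.12 (SE), a level 1.14-fold higher in the luciferase group, and it was not called. Pcyt2 was among the steadiest of the supply genes, with coefficients of variation of 4.50% and 5.94%.

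Pemt encodes the methyltransferase that turns phosphatidylethanolamine into phosphatidylcholine, the route that needs no dietary choline. It read 9462, 10497 and 8022 in the luciferase livers and 8849, 11681 and 8949 in the Nfkbiz livers. These values overlapped, with a difference of 0.07 ± 0.15 (SE) and an interval from 0.830-fold to 1.33-fold, and the sign turned with array weights (-0.030), without luciferase array 3 (-0.033) and without Nfkbiz array 2 (-0.059). The data therefore bound a difference of Pemt in either direction but do not show that the groups were equal.

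Bhmt, the gene of betaine-homocysteine methyltransferase, which uses the choline product betaine to remethylate homocysteine, read 40054, 50151 and 51569 against 50349, 55384 and 44683. The groups overlapped, with a difference of 0.09 ± 0.14 (SE), an interval from 0.855-fold to 1.32-fold and a turn of sign with cyclic loess normalization (-0.051) and without luciferase array 1 (-0.026). The brightest probe set of each array read 52443 to 67210, so Bhmt was read close to the top of the scale. Lpcat3, the gene of the acyltransferase that puts polyunsaturated fatty acids onto lysophosphatidylcholine, read 3728, 3901 and 3168 against 4207, 3504 and 3694. It differed by 0.08 ± 0.13 (SE), with overlapping groups and an interval from 0.859-fold to 1.30-fold, and its sign turned without luciferase array 3 (-0.0088). Thus the gene that imports lysophosphatidylcholine was lower, and for the gene of the enzyme that acylates it no difference was detectable with 3 arrays a group.

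**Figure D4:**
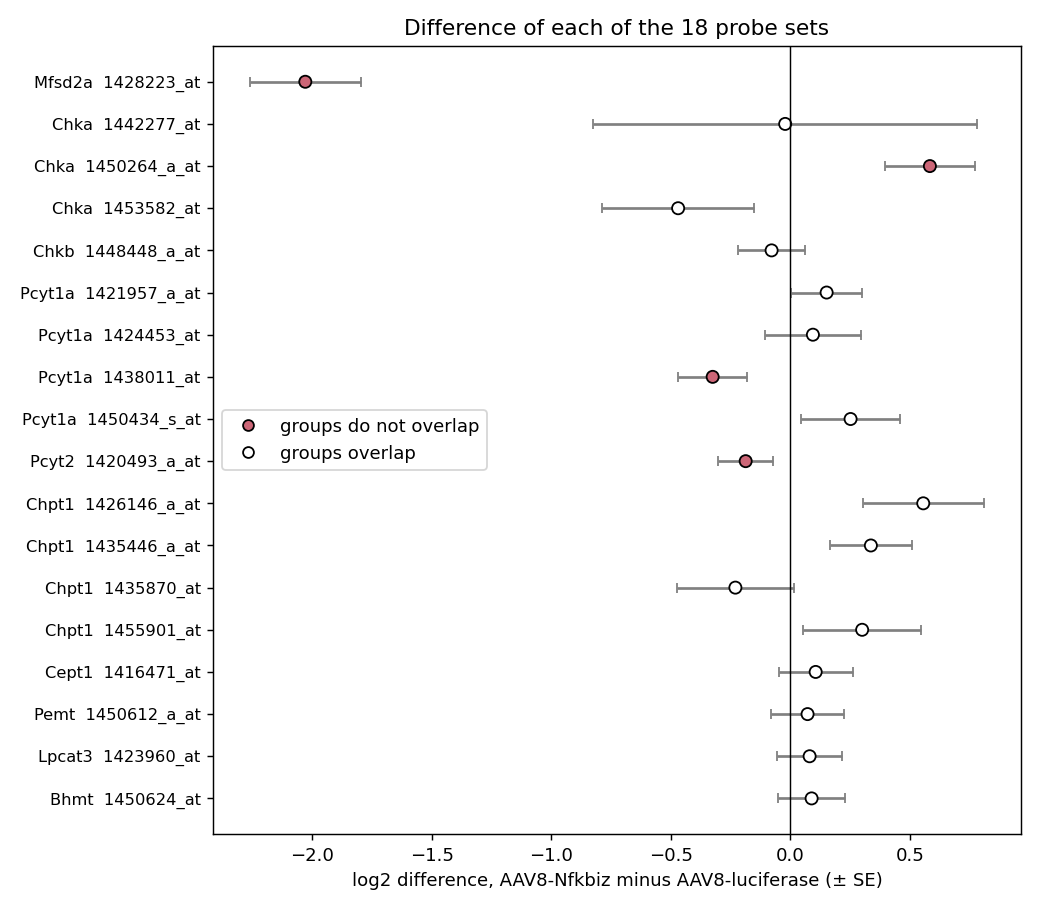
Log2 difference, AAV8-Nfkbiz minus AAV8-luciferase (horizontal axis), with limma's moderated SE as bars, for each of the 18 probe sets; filled points are probe sets whose groups do not overlap. Mfsd2a lies at -2.03, and the other 17 probe sets lie between -0.47 and 0.58, with both signs among the probe sets of Chka, Pcyt1a and Chpt1.

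Around these genes, 6 lists of the neighbouring pathways held 97 genes, of which 87 had a probe set of their own and 82 passed the filter. None of the 82 was called by limma over all genes. At an unadjusted p below 0.05 there were 12 of the 82 (14.6%), beside 12% of all genes tested. The groups did not overlap for 20 of the 82 (24.4%), 6 higher and 14 lower, beside 18% of the 13312 genes, 1065 higher and 1333 lower.

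Transporters of choline and of lysophospholipids other than Mfsd2a had 0 of 8 called (1 at an unadjusted p below 0.05) and a median of -0.06, where all genes had -0.02. The choline transporter-like gene Slc44a3 read 368, 306 and 416 against 207, 271 and 208, without overlap (-0.67 ± 0.20 SE, limma adjusted p = 0.238, lower on 3 of 3 Nfkbiz arrays). Slc44a1, the main choline transporter-like gene of many tissues, was at -0.12 ± 0.14, Slc44a2 at -0.22 ± 0.15 and the transporter gene Flvcr2 at 0.12 ± 0.20. Slc44a2 was read by a probe set of the _x_at type, which can cross-hybridize. The lysophospholipid transporter gene Spns1 was at 0.10, Spns2 at 0.05, and Mfsd2b, the closest relative of Mfsd2a, was below the filter.

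Genes of the phosphatidylethanolamine and phosphatidylserine branch, which feeds Pemt, had 0 of 6 called (0 at an unadjusted p below 0.05) and a median of -0.18. The phosphatidylserine synthase gene Ptdss1 read 2338, 2831 and 2296 against 1991, 1923 and 2176, without overlap (-0.29 ± 0.13 SE, limma adjusted p = 0.424). Ptdss2 was at -0.23 ± 0.14, Etnppl, an ethanolamine phosphate lyase gene, at -0.36 ± 0.27, and the phosphatidylserine decarboxylase gene Pisd, on an _x_at probe set, at 0.17 ± 0.12. The value of Etnppl ran from -0.60 without luciferase array 1 to -0.054 without Nfkbiz array 3. Its second, dimmer probe set was at -1.05, and the mean of both at -0.70.

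Remodelling and breakdown of phosphatidylcholine had 0 of 25 genes called (5 at an unadjusted p below 0.05) and a median of 0.05. Pla2g4a, the cytosolic phospholipase A2 gene, which releases arachidonate and lysophospholipid, read 264, 253 and 211 in the luciferase livers and 464, 476 and 422 in the Nfkbiz livers. All 3 Nfkbiz arrays were well above the others, with a difference of 0.91 ± 0.17 (SE), and the limma adjusted p of 0.0918 missed the threshold. It ran from 0.81 to 0.97 when 1 array was left out. Another phospholipase gene, Pla2g6, was lower without overlap (-0.43 ± 0.16, limma adjusted p = 0.332), with its further probe sets at -0.39 and 0.38. Pla2g12b, which bears on lipoprotein secretion, was higher without overlap (0.37 ± 0.14, limma adjusted p = 0.343), and the acyltransferase gene Lpgat1 was at 0.38 ± 0.16, with its other probe sets above the filter between -0.27 and 0.04.

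Transfer and export of phosphatidylcholine had 0 of 11 genes called (2 at an unadjusted p below 0.05) and a median of -0.04. Abcb1a, a multidrug transporter gene of the family of the phosphatidylcholine floppase, read 925, 561 and 714 against 280, 249 and 452, without overlap (-1.18 ± 0.25 SE, limma adjusted p = 0.125), and its second probe set was at -1.70. Abcb4, the canalicular floppase gene that moves phosphatidylcholine into bile, read 9470, 8298 and 9034 against 7282, 5953 and 8284, so that the groups were separated only by the gap between 8298 and 8284 (-0.33 ± 0.14, limma adjusted p = 0.397). Atp8b1 was at -0.29 ± 0.15 and the phosphatidylcholine transfer protein gene Pctp at 0.20 ± 0.14. Apob and Mttp, which lipoprotein assembly needs, were at -0.09 and 0.03.

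Choline oxidation and the methyl cycle, which share betaine and S-adenosylmethionine with Bhmt and Pemt, had 0 of 20 genes called (0 at an unadjusted p below 0.05) and a median of -0.12. The genes with the smallest p were Shmt2 (-0.37 ± 0.17, on an _x_at probe set), Mat2b (0.26 ± 0.13), Ahcyl1 (-0.23 ± 0.12) and Mtrr (-0.52 ± 0.26), with limma adjusted p-values from 0.433 to 0.464. The S-adenosylmethionine synthetase gene Mat1a and the glycine methyltransferase gene Gnmt, both abundant hepatocyte genes, were at 0.01 and 0.09, and choline dehydrogenase, Chdh, at -0.20. None of these 3 passed.

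Nuclear regulators tied to phosphatidylcholine synthesis had 0 of 12 genes called (4 at an unadjusted p below 0.05) and a median of -0.19. The groups did not overlap for 7 of the 12 (58.3%), 3 higher and 4 lower, beside 18% of all genes and 10% to 25% of the other neighbouring lists. Srebf1, whose activation is held back by phosphatidylcholine synthesis, read 3801, 4193 and 5444 against 2506, 3205 and 2782 (-0.65 ± 0.16 SE, limma adjusted p = 0.182, lower on 3 of 3 Nfkbiz arrays). Srebf2, the regulator of cholesterol synthesis, read 614, 615 and 631 against 433, 357 and 427 (-0.62 ± 0.15, limma adjusted p = 0.182), with its second probe set at -0.36. Nr5a2, a receptor that binds phosphatidylcholine, was at -0.35 ± 0.12 and its other probe sets at -0.18, -0.10 and 0.06. Ppara was at -0.38 ± 0.15, with further probe sets at -0.42 and -0.43.

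**Figure D5:**
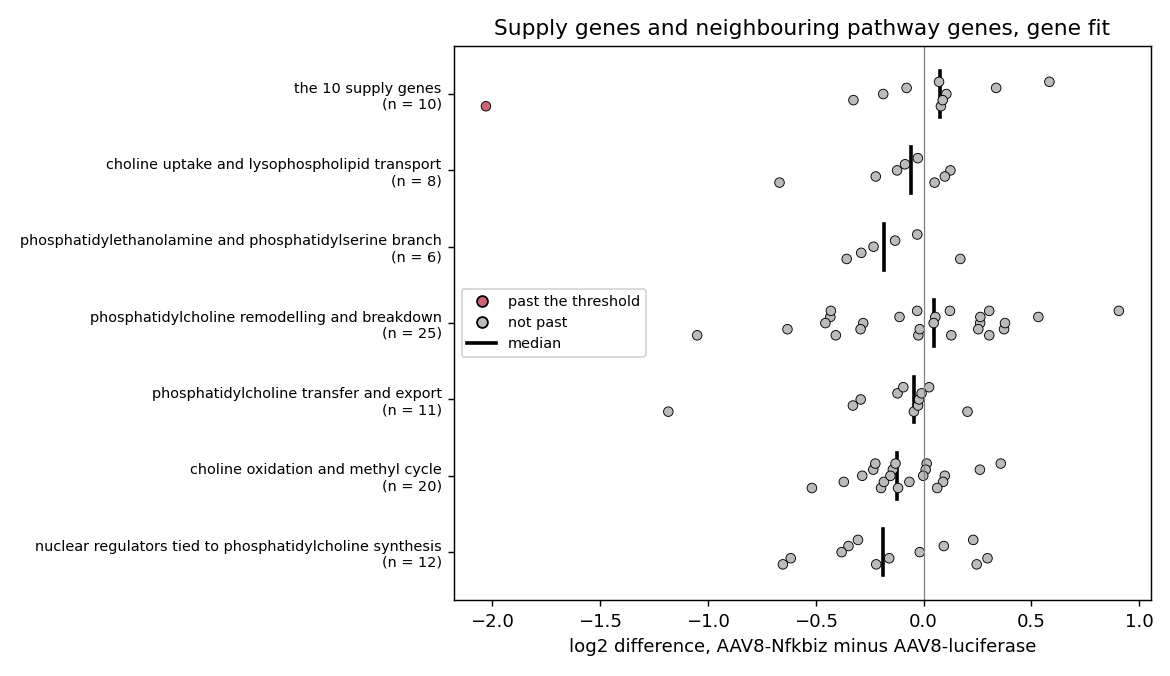
Log2 difference, AAV8-Nfkbiz minus AAV8-luciferase (horizontal axis), of the 10 supply genes and of the genes tested in each of 6 neighbouring lists, 1 point a gene, with the list's median as a black bar; filled red marks a call. Mfsd2a at -2.03 is the 1 call, and the 82 neighbouring genes lie between -1.18 and 0.91.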

How the data were processed

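Liver RNA, from 100 ng of total RNA labelled with biotin, was measured on 6 Affymetrix 3' expression arrays, 3 per group. The deposited values are intensities on a linear scale, made by the authors with MAS5 per the submitters' processing notes (no version given) and scaled, from the values, to a mean of the middle 96% between 495.4 and 496.5. Such scaling assumes like totals of signal on all arrays. The table held 45037 probe sets, of which 34945 had 1 gene symbol in the platform annotation, 932 several and 9160 none listed. Symbols were updated by Entrez identifier through RefSeq's GRCm38.p6 gene table (34741 found, 0 changed).

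Intensities were log2-transformed with no pseudocount. The lowest 40% of probe sets by mean were left out, and limma 3.58.1 (R 4.3.3; lmFit, eBayes with an intensity trend, two-sided, Benjamini-Hochberg) was fitted over 27022 probe sets, and over 13312 genes, each by its brightest probe set on average. On 10 simulated data sets of those 13312 genes, with 200 changed genes, it called 44.2% of genes moved by 1 on the log2 scale. Of those moved by 2 it called 76.9%. These shares depend on the number of changed genes, which is not known for the real data. Levels carry standard deviations or coefficients of variation over 3 arrays. The labels say only that arrays are separate samples, so p-values reflect only the spread among them, which may be technical, and their number limits the precision. An exact permutation test of 3 against 3 arrays cannot go below 0.1.

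The members, lists and motifs were chosen with earlier results of these data known. Named were all members, of each list the genes called and the 4 with the smallest p, and the 5 genes nearest to Mfsd2a. Spns1, Spns2, Mfsd2b, Apob, Mttp, Mat1a, Gnmt and Chdh were added after their values were seen. Alternatives were normalization, centring, pseudocount, filter, variance prior, array weights, choice of probe set, the replicate number as a block, and each array left out. Python 3.11.15 with matplotlib 3.10.9 drew the figures.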

Additional observations from a re-analysis of the deposited data

How the results depend on the processing

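Mfsd2a kept its direction under every alternative run. It was chosen for its fall on these arrays, and its lowest luciferase array was 2.45 times its highest Nfkbiz array. Leaving out an array could therefore not turn the sign, and the kept direction is no separate support. Without the variance trend its difference was -2.03 and no longer called, and 0 genes, 0 probe sets, 0 member genes and 0 member probe sets were called. Leaving out 1 array gave -2.32 to -1.79 for Mfsd2a, 9 to 21 genes, 8 to 33 probe sets, 1 member gene in each case and 0 to 1 member probe sets. The count of genes, 30, became 62 with array weights, 13 when a gene's probe sets were averaged and 10 when its most variable one stood for it. The count of probe sets, 19, became 30 with a pseudocount of 16, 46 without the lowest 60% and 77 with array weights. The 6 neighbouring lists had 0 calls under each alternative. Among neighbouring genes, none of them called, the sign turned with the most variable probe set for Ahcyl1 (0.14), Nr5a2 (0.059), Pla2g6 (0.38), Ptdss1 (0.22) and Shmt2 (0.024), with the mean of probe sets for Ptdss2 (0.023), and without the first luciferase array for Flvcr2 (-0.041). The cause was not tested. Deviations of arrays with the same replicate number were hardly correlated (-0.06, 0.07 and -0.03 over 13312 genes). The labels do not say whether these numbers pair the arrays, and such correlations cannot exclude it. With the replicate block Mfsd2a was at -2.03 and called, and 27 genes and 28 probe sets were called.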
